A study of Mus musculus and Homo sapiens with 8 samples.

Results

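The 9 genes are Col1a1, Col1a2, Col3a1, Sparc, Dcn, Fn1, Vim, Cxcl12 and Vcam1. Vim encodes a filament of the cytoplasm, and the others encode collagens, matrix proteins and surface or secreted proteins of the marrow stroma. All 9 were picked with the knockout and wild-type values of a sort of blood stem and progenitor cells already known. They were picked as a possible sign of stromal cells carried through that sort. Their values in the mouse comparison are therefore a description and carry no test. All 9 had a row among the 17097 genes of the mouse tables. Of their human forms, COL1A1, COL3A1, SPARC, DCN, FN1 and VIM, 6 of 9, had one among the 20296 genes of the human tables, and COL1A2, CXCL12 and VCAM1 were not analysed in human cells.

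RNA was sequenced from mouse LSK cells of C57BL/6 bone marrow that were Anp32b-KO (n = 2 libraries) or WT (n = 2), and from human KU812 cells that carried shANP32B (n = 2) or the control hairpin shNC (n = 2). LSK cells are stem and progenitor cells sorted as negative for lineage antigens and positive for Sca-1 and c-Kit, and KU812 is an established chronic myelogenous leukemia line with basophil features. ANP32B is a nuclear histone chaperone. The sources used here do not give the age or number of the animals, the deleted part of the gene, the sorting protocol or whether replicates were separate animals or cultures. The p-values therefore reflect variation among these libraries alone, and that variation may be technical.

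Fibrillar collagens are secreted as triple helices and assemble into the fibers of bone and reticular connective tissue. In marrow, type I collagen is known as a product of osteoblasts and reticular stromal cells. The same stromal cells display and secrete the ligands, VCAM1 and CXCL12, that hold stem cells in their niche. Vimentin and fibronectin are not particular to stroma: vimentin fills the cytoplasm of most white blood cells, monocytes and macrophages make fibronectin, and platelets store SPARC.

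Promoter sequences are shown for Sparc, Col1a2 and Vim, whose levels were lower in both KO libraries than in either WT library. Each run holds the 250 bases before the RefSeq transcript start on GRCm38.p6, read 5′ to 3′ on the gene's strand, and capitals mark CCAAT or its reverse complement ATTGG, the box that the factor NF-Y binds. The Sparc window lies at chr11:55420081-55420330 on the minus strand, that of Col1a2 at chr6:4505368-4505617 and that of Vim at chr2:13574061-13574310, both on the plus strand.
Sparc: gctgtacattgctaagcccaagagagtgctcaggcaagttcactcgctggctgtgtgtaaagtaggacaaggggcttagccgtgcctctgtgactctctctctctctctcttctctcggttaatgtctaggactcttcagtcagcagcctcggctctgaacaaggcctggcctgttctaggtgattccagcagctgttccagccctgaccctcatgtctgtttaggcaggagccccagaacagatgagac
Col1a2: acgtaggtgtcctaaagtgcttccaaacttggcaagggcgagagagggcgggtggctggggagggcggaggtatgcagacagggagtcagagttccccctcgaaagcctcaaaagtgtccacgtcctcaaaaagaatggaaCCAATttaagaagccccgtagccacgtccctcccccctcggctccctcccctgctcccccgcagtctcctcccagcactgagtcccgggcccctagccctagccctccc
Vim: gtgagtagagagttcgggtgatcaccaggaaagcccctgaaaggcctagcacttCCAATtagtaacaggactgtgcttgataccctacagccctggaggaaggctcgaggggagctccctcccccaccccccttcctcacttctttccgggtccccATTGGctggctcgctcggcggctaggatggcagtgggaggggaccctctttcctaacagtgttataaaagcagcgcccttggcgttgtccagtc
The Col1a2 window held 1 CCAAT, starting 109 bases before the transcript start. That of Vim held 2, starting 196 bases before it and, on the other strand, 94 bases before it. No CCAAT on either strand was found in the Sparc window. A CCAAT on either strand stood in 33.8% of the 32851 mouse windows of this length. The letters TATAA or TTATA, which overlap in Vim, began 32 and 33 bases before its start and were not found in the other pair of windows shown, and 22.8% of all windows held either. RefSeq windows were matched for 5 of the 9 genes, Col3a1 and Cxcl12 among them, and not for Col1a1, Dcn, Fn1 or Vcam1.

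The Anp32b-KO libraries held 12117196 and 14085985 counts, the WT libraries 15683480 and 10549358, and those of KU812 cells 24416691 to 28209409. Levels are given as CPM, counts scaled to library size with TMM, a correction for library composition, and 3 counts stand for 0.196 to 0.286 CPM in an LSK library. Anp32b itself stood at 201 and 248 CPM in KO and 793 and 730 CPM in WT libraries (log2 fold change -1.76, SE 0.17). ANP32B stood at 40.3 and 38.1 CPM in shANP32B and 250 and 285 CPM in shNC libraries (log2 fold change -2.77, SE 0.12, adjusted p = 5.18e-08, edgeR quasi-likelihood test). The gate marker Kit, which encodes c-Kit, stood at 399 and 355 CPM in KO and 334 and 371 CPM in WT libraries, and Ly6a, which encodes Sca-1, at 37.8 and 43.4 CPM in KO and 60.2 and 45.5 CPM in WT. Of the basophil genes of KU812 cells, CPA3, a mast cell and basophil protease gene, rose to 1063 and 1150 CPM in shANP32B libraries, against 530 and 532 CPM in shNC (log2 fold change 1.06, adjusted p = 9.8e-06, edgeR). CLC, the gene of the Charcot-Leyden crystal protein, fell to 3.97 and 6.13 CPM in shANP32B, against 29.8 and 35.2 CPM in shNC (-2.69, adjusted p = 5.37e-06, edgeR). HDC, the histamine-forming enzyme gene, stood at 1217 and 1131 CPM in shANP32B and 1255 and 1092 CPM in shNC and was not called. The part of these shifts in the KU812 values of the matrix genes was not tested. The first WT library stood apart. Immunoglobulin genes made up 0.528% and 0.652% of counts in KO, but 1.44% and 0.319% in WT libraries. The ribosomal RNA gene Rn18s-rs5 made up 0.51% and 0.30% in KO, but 0.0293% and 0.851% in WT. Many of the results that rest on this library, though not all, are given with and without it.

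Gene positions are those of the GENCODE annotation on GRCm38, where all 9 genes are protein-coding. Fn1 and Vcam1 overlap antisense genes there, Apol7d and Gm43109, and Col1a2 and Col3a1 overlap Gm43921 and Gm47302 on their own strand. None of these has a row of its own, so shared reads cannot be told apart. The 2 chains of type I collagen were lower in both KO libraries. Col1a1 (chr11:94936224-94953042, plus strand), the gene of the alpha-1 chain, was read 194 and 170 times in KO libraries and 378 and 262 times in WT libraries. On the CPM scale this was 15.8 and 11.9 in KO, against 24.8 and 25.0 in WT. The groups did not overlap, and the WT libraries lay closer together than the KO libraries. The log2 fold change was -0.85 (SE 0.21), and -0.86 without the first WT library. Col1a2 (chr6:4504814-4541544, plus strand), the gene of the alpha-2 chain, had 252 and 289 counts in KO and 470 and 336 in WT libraries, or 20.5 and 20.2 CPM in KO and 30.8 and 32.0 CPM in WT. Libraries of the same group lay close together, with a mean of 20.3 ± 0.212 CPM in KO and 31.4 ± 0.886 CPM in WT libraries (SD, n = 2 each) and a log2 fold change of -0.63 (SE 0.16). Per length of annotated exon, Col1a1 stood above Col1a2 in every LSK library, by a ratio of 1.46 and 1.11 in KO and of 1.52 and 1.48 in WT libraries. That length joins the exons of all transcripts, 6563 bases for Col1a1 and 12426 for Col1a2. By CPM alone Col1a2 stood above Col1a1 in every LSK library, so the order rests on the lengths used.

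Col3a1 (chr1:45311538-45349706, plus strand), the gene of type III collagen, a fiber of reticular tissue that is usually laid down beside type I, was nearly absent from the reads. It had 7 and 6 counts in KO and 1 and 5 counts in WT libraries, and the groups overlapped on the CPM scale. The ratio of its summed counts, KO over WT and per total counts, was 2.17. Dcn (chr10:97479609-97518143, plus strand), the gene of the collagen-binding proteoglycan decorin, was as rare, with 3 and 0 counts in KO and 12 and 5 counts in WT libraries. Its groups did not overlap, and its ratio of summed counts was 0.177. Both genes were picked on this comparison, so these ratios describe the libraries and test nothing. Neither Col3a1 nor Dcn passed the filter on low counts, so the other 7 genes make up every fitted value given here.

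Sparc (chr11:55394500-55423183, minus strand), which encodes a collagen-binding matricellular protein, had the lowest log2 fold change of the 7 fitted genes. It was read 38 and 59 times in KO and 158 and 83 times in WT libraries, or at 3.09 and 4.12 CPM in KO and 10.3 and 7.91 CPM in WT. No KO library reached either WT library. The log2 fold change was -1.34 (SE 0.33), and -1.13 without the first WT library.

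Fn1 (chr1:71585520-71653200, minus strand), the gene of the adhesive glycoprotein fibronectin, stood at 28.4 and 25.2 CPM in KO and at 34.3 and 25.5 CPM in WT libraries. The groups overlapped, and the log2 fold change of -0.16 (SE 0.19) was 0.064 without the first WT library. Vim (chr2:13573927-13582826, plus strand), the intermediate filament gene, had by far the most reads, 9878 and 10246 in KO and 18109 and 9254 in WT libraries. Its level was 803 and 715 CPM in KO, below both WT libraries at 1186 and 882 CPM. The log2 fold change was -0.45 (SE 0.19) and lay at -0.22 without the first WT library.

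The niche ligands varied widely within a group, and KO and WT overlapped for both. Cxcl12 (chr6:117168535-117181367, plus strand), the chemokine that retains stem cells in marrow, was read 14 and 26 times in KO and 52 and 11 times in WT libraries, or at 1.14 and 1.82 CPM in KO and 3.40 and 1.05 CPM in WT. The second WT library was the lowest of all 4 and the first the highest. Its log2 fold change of -0.61 (SE 0.64) became 0.49 without the first WT library. Vcam1 (chr3:116109949-116129688, minus strand), the adhesion receptor bound by integrin alpha-4 beta-1, stood at 16.0 and 28.6 CPM in KO and 39.6 and 25.5 CPM in WT libraries. These groups overlapped too, at a log2 fold change of -0.54 (SE 0.31), which was -0.19 without the first WT library and also -0.19 without the first KO library.

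**Figure D1:**
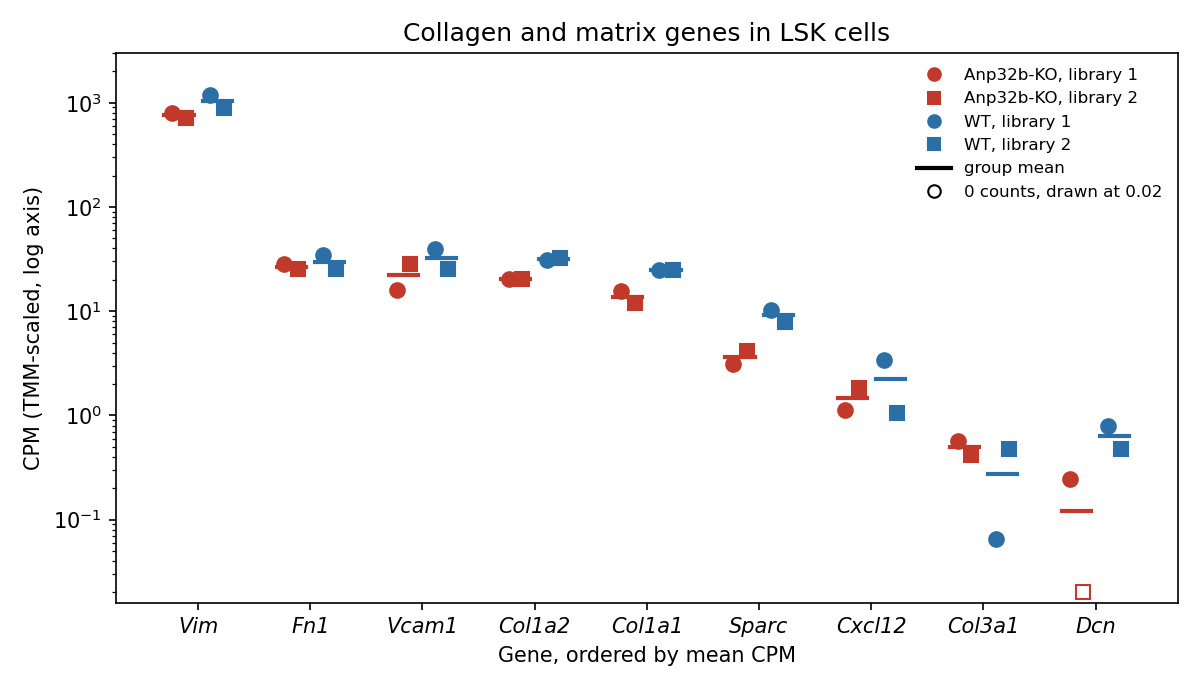
CPM of the 9 genes in the 4 LSK libraries on a log axis, genes from left to right by mean CPM, with Anp32b-KO libraries in red to the left of WT libraries in blue and a bar at each group mean of 2 libraries. Col1a1, Col1a2, Sparc, Vim and Dcn are lower in both KO libraries than in both WT libraries, while Fn1, Vcam1, Cxcl12 and Col3a1 overlap.

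Of the 7 fitted genes, Col1a1, Col1a2, Sparc and Vim, 4 in all, lay lower in both KO than in both WT libraries, and none lay higher in both. Over the 14598 genes tested, 15.6% lay lower and 17.7% higher in this way. The median log2 fold change of the 7 genes was -0.61, against -0.0079 over all genes tested, and it was -0.22 without the first WT library. At an adjusted p under 0.05, 0.0% of the 14598 genes were called (edgeR quasi-likelihood test, 657 genes at an unadjusted p under 0.05, and 15 genes called with DESeq2). Since the genes were picked on this comparison, these shares say nothing about them. In bulk RNA, fewer cells of a type and less RNA per cell cannot be told apart. The 9 genes took 0.0902% and 0.0821% of all counts in KO and 0.129% and 0.0994% in WT libraries, mostly through Vim. Without Vim they summed to 85.6 and 92.2 CPM in KO and 144 and 118 CPM in WT.

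Per kilobase of annotated exon, over the 4 LSK libraries, Vim stood highest with a mean of 189 and a lowest library of 150.8 CPM per kilobase, apart from all others. Vcam1 (1.80 to 4.46), Col1a1 (1.81 to 3.81), Fn1 (2.16 to 2.94), Col1a2 (1.62 to 2.58) and Sparc (0.815 to 2.73) followed, in the order of their means, and each overlapped its neighbors. Cxcl12 lay below them at 0.128 to 0.416 CPM per kilobase, and Dcn (0 to 0.135) and Col3a1 (0.0067 to 0.058) came last, with ranges that overlapped. The lengths join the exons of all transcripts, so the order of neighboring genes depends on this choice of length.

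The genes whose profile over the 4 LSK libraries lay nearest to that of Col1a1, by Euclidean distance between centered log2 values, were Cacnb3, a calcium channel subunit gene (distance 0.082), Cux2, a homeobox gene (0.089), Igfbp7, a secreted growth factor binding protein gene (0.091), Ifitm6 (0.10) and Itgb2l (0.11). Igfbp7 stood at 3.25 and 2.58 CPM in KO and 5.63 and 5.43 CPM in WT libraries. Col1a2 ranked 70th of 12170 genes by nearness to Col1a1 and Vim 332nd, while Sparc ranked 1376th. Nearest to Sparc were Muc1, a mucin gene (0.16), Csrp3 (0.19), the growth factor gene Nrg1 (0.19), Clec7a, which encodes the fungal receptor dectin-1 of myeloid cells (0.26), and the chemokine gene Ccl5 (0.30). Clec7a stood at 7.07 and 7.89 CPM in KO and 21.1 and 13.4 CPM in WT libraries. Cacnb3 (0.349 to 1.38 CPM), Cux2 (0.559 to 1.64), Muc1 (0.163 to 1.77) and Csrp3 (0.325 to 1.64) had few reads, so counting error weighs on their distances. With 4 libraries many genes share a profile, and the distances are a description.

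Few markers of marrow stroma could be followed. Of 12 markers of reticular stromal cells, Pdgfrb, Igfbp5 and Il7, 3 in all, had a row, and the others, Lepr and Adipoq among them, were not analysed here. The tables list genes with at least 10 counts over the 4 LSK libraries. Igfbp5, a secreted binding protein of reticular cells, had 0 and 3 counts in KO and 7 and 6 counts in WT libraries. Pdgfrb, a growth factor receptor of mesenchymal cells, had 246 and 294 counts in KO and 289 and 283 counts in WT libraries, with the groups overlapping. The 3 genes summed to 21.1 and 22.1 CPM in KO and 21.0 and 29.0 CPM in WT.

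Osteoblast markers summed to 19.3 and 19.1 CPM in KO and 27.2 and 26.8 CPM in WT libraries over the 6 of 10 that had a row, and none of these 6 was at 0 in any library. Most of that sum was Spp1, the gene of osteopontin, which macrophages make as well, at 16.1 and 14.5 CPM in KO and 21.3 and 22.02 CPM in WT. Ibsp, the gene of bone sialoprotein, had 4 and 5 counts in KO and 21 and 4 in WT libraries. The bone-forming enzyme gene Alpl stood at 0.894 and 1.95 CPM in KO and 1.51 and 0.763 CPM in WT, and its groups overlapped. The part of stromal or osteoblast cells in the levels of Col1a1, Col1a2 and Sparc was not tested.

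The summed level of the endothelial list lay higher in both KO libraries, and this sum came mainly from 2 genes. Tie1, an endothelial receptor gene, stood at 120 and 104 CPM in KO and 67.2 and 92.2 CPM in WT, and Robo4, which is expressed in endothelium and in stem cells, at 44.4 and 39.0 CPM in KO and 26.1 and 34.2 CPM in WT. Cdh5, the defining junction gene of endothelium, had 0 and 2 counts in KO and 10 and 1 counts in WT libraries. Over the 11 of 12 genes with a row, the list summed to 172 and 153 CPM in KO and 101 and 133 CPM in WT. Of its 7 tested genes 3 lay higher and 1, Kdr, lower in both KO libraries than in both WT libraries. Over all genes tested 17.7% lay higher and 15.6% lower in this way. Kdr stood at 0.813 and 1.047 CPM in KO and 1.310 and 1.049 CPM in WT, so its second libraries were nearly equal. The part of endothelial cells in these values was not tested.

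Summed levels of the myeloid lists lay lower in both KO libraries, as did Vim, which myeloid cells express. Fn1 and Vcam1, which such cells can make as well, overlapped between groups. The 9 mature neutrophil markers summed to 854 and 742 CPM in KO and 1223 and 1195 CPM in WT libraries, a median log2 fold change of -0.60. S100a8 and S100a9, the subunits of calprotectin, stood at -0.47 and -0.58 on the log2 scale, and the granule gene Ngp at -0.69. The 10 monocyte markers summed to 1022 and 992 CPM in KO and 1520 and 1128 CPM in WT, with a median of -0.30 that was -0.16 without the first WT library. Ly6c2, a surface antigen of inflammatory monocytes, stood at 177 and 201 CPM in KO and 359 and 240 CPM in WT. F13a1, the gene of coagulation factor XIII A chain, stood at 213 and 190 CPM in KO and 418 and 205 CPM in WT. Log2 fold changes were -0.66 for Ly6c2 and -0.63 for F13a1. Lyz2 and Ccl9, also among the highest means of the monocyte list, moved less, at -0.23 and -0.21. Ccr2, at 0.087, was the 1 monocyte gene above 0. Macrophage markers were few, and 11 of 13 had a row. These summed to 34.5 and 40.1 CPM in KO and 53.7 and 44.0 CPM in WT. The complement gene C1qa stood at 2.76 and 2.09 CPM in KO and 5.57 and 3.53 CPM in WT. Log2 fold changes were -0.91 for C1qa, -0.46 for Axl, -0.35 for Slc40a1 and 0.029 for Hmox1. The KO and WT groups overlapped for Slc40a1 and Hmox1. Of the 11 macrophage genes 9 lay below and 2 above 0. The part of myeloid cells in the levels of the matrix genes was not tested.

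The sums of the platelet and B lineage lists overlapped between groups. The 12 megakaryocyte genes summed to 452 and 417 CPM in KO and 407 and 450 CPM in WT, with Pf4, the gene of platelet factor 4, at 25.4 and 25.7 CPM in KO and 28.0 and 31.6 CPM in WT. Of the 12 genes 4 lay higher and 2, Pf4 among them, lower in both KO libraries. Over all genes tested 17.7% lay higher and 15.6% lower in this way. The median log2 fold change of the 12 genes was 0.24, or 0.06 without the first WT library. The 4 higher genes, named after their values were seen, were Ppbp (0.84), Gp1ba (0.88), Gp1bb (0.71) and Itgb3 (0.34). Itga2b (-0.15) and Vwf (-0.088), which had more reads than these 4, and Gp9 (-0.12) overlapped between groups. Of the 12 megakaryocyte genes 7 lay above and 5 below 0. The B and plasma cell list followed the first WT library, at 290 and 320 CPM in KO and 615 and 171 CPM in WT, mostly through Igj, the joining chain gene, at 258 and 280 CPM in KO and 566 and 141 CPM in WT. The median log2 fold change of the B and plasma cell list was -0.18, and 0.95 without the first WT library. The 11 genes of the LSK gate and stem cells summed to 2459 and 2358 CPM in KO and 2528 and 2224 CPM in WT.

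**Figure D2:**
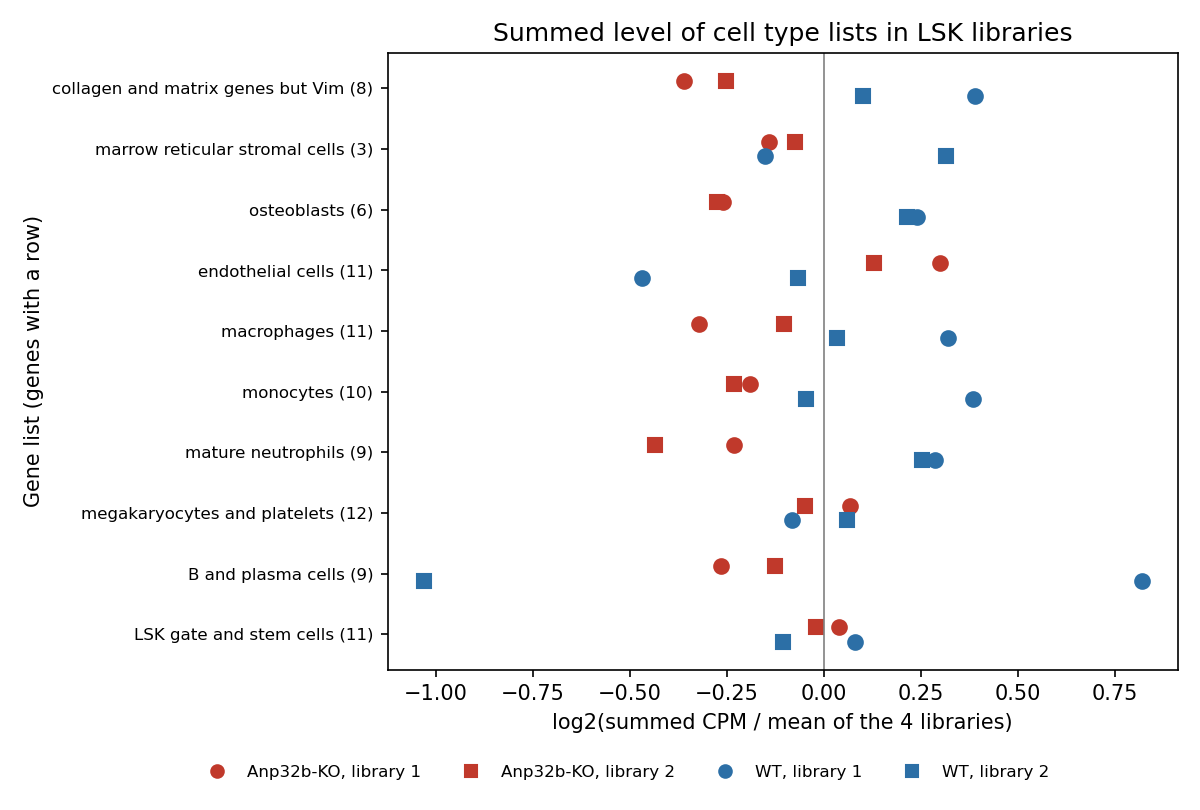
Summed CPM of each cell type list in every LSK library, as the log2 ratio to the mean of the 4 libraries, with Anp32b-KO libraries in red drawn above WT libraries in blue and the number of genes with a row in brackets. The collagen and matrix genes without Vim, osteoblasts, macrophages, monocytes and neutrophils lie lower in both KO libraries, the endothelial list lies higher in both, and the B and plasma cell list is set apart by the 2 WT libraries, which lie at opposite ends.

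Other matrix genes lay on both sides of 0. The median log2 fold change of the 14 tested genes for other collagen chains was 0.34, with 9 above and 5 below 0, and 0.02 without the first WT library. In this list 3 genes lay lower and 4 higher in both KO libraries than in both WT libraries. Over all genes tested 15.6% lay lower and 17.7% higher in this way. The 3 lower genes, named after their values were seen, were Col5a2, Col5a3 (log2 fold change -0.87) and Col27a1 (-1.03). Col4a1 and Col4a2, the basement membrane chains, stood at 82.8 and 63.7 CPM and at 93.0 and 70.7 CPM in KO, and at 67.8 and 54.7 CPM and at 60.6 and 58.3 CPM in WT libraries. Col16a1, a chain of a fibril-associated collagen, stood at 55.1 and 47.1 CPM in KO and 34.8 and 39.2 CPM in WT. Enzymes and chaperones of collagen folding had a median of 0.083 over 15 genes, with P4hb, the prolyl hydroxylase subunit and disulfide isomerase, at 704 and 801 CPM in KO and 919 and 672 CPM in WT.

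Among receptors of the 9 proteins, with a median of -0.032 over 13 genes, Itga4, the integrin chain that binds VCAM1, stood at 403 and 349 CPM in KO and 379 and 405 CPM in WT libraries. Cxcr4, the receptor of CXCL12, stood at 66.5 and 54.0 CPM in KO and 186 and 68.9 CPM in WT, where the first WT library lay far above the other 3. Mmp14, a membrane collagenase gene, stood at 16.0 and 18.6 CPM in KO and 6.61 and 11.9 CPM in WT. Thbs1, the gene of thrombospondin-1, stood at 99.9 and 63.5 CPM in KO and 168 and 82.2 CPM in WT. The medians were 0.15 for the glycoprotein and proteoglycan list (16 genes), 0.023 for proteases and inhibitors (12), -0.06 for the mesenchymal cytoskeleton (7) and -0.047 for TGF-beta signalling and mesenchymal regulators (13). Without the first WT library the TGF-beta median was 0.15.

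No gene of these 16 pathway, cell type and gate lists passed the test in LSK cells. Of 160 genes tested with edgeR 0 were called, and DESeq2, fitted without that filter to 187 list genes, called 0. With edgeR the lowest adjusted p was 0.986, and 26 genes had an unadjusted p under 0.05. Without the second WT library 20 of 172 genes were called, 6 higher and 14 lower, Cxcr4 (-1.63), Thbs1 (-1.04), Mmp14 (1.38) and S100a9 (-0.53) among them. In that fit 830 of all 15352 genes, or 5.41%, were called. Without the first WT library 1 of 164 list genes was called, Igj at 0.93, and 36 of all 15112 genes, or 0.238%.

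In KU812 cells, which the choice of genes did not use, 1 of the 5 genes that could be tested was called. COL3A1 was read 14 and 26 times in shANP32B libraries and 1 and 4 times in shNC libraries, or at 0.54 and 1.05 CPM in shANP32B and 0.036 and 0.163 CPM in shNC. All 4 libraries held few reads of it, and the groups did not overlap. Its summed counts per total differed 8.61-fold, with a 95% exact interval of 3.40 to 27.9 that covers counting error only. The fitted log2 fold change was 2.98 (SE 0.93, 95% confidence interval 1.04 to 5.04, adjusted p = 0.0391, edgeR quasi-likelihood test). The call was lost without the first shNC library (adjusted p = 0.218) and without either shANP32B library (adjusted p = 0.0877 and 0.394), in the same edgeR test. Over all 16529 genes tested, 16.6% were called.

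The other 4 tested genes were read well enough for narrower intervals and were not called. COL1A1 stood at 2.35 and 2.34 CPM in shANP32B and 2.001 and 2.15 CPM in shNC libraries, a log2 fold change of 0.17 with a 95% confidence interval of -0.66 to 1.01. SPARC stood at 39.4 and 39.0 CPM in shANP32B and 38.6 and 33.7 CPM in shNC, a log2 fold change of 0.12 (interval -0.18 to 0.41). Fibronectin (FN1) stood at 4.67 and 4.23 CPM in shANP32B and 3.11 and 3.29 CPM in shNC, a log2 fold change of 0.47 (interval -0.19 to 1.14). In all these 3 genes both shANP32B libraries lay above both shNC libraries, as in 29.5% of the genes tested, while 28.9% lay lower in this way. Their adjusted p values were 0.811, 0.627 and 0.334 in the order given (edgeR).

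VIM stood at 221 and 214 CPM in shANP32B and 237 and 165 CPM in shNC libraries, where the 2 control libraries lay on either side of the knockdown (log2 fold change 0.11, interval -0.20 to 0.42, adjusted p = 0.657, edgeR). Without the first shNC library it was called at 0.39 (adjusted p = 0.00527, edgeR), and without the second it stood at -0.14. VIM-AS1, an antisense gene at the same locus, had 228 and 244 counts in shANP32B and 269 and 181 in shNC libraries, and without a stated strand setting reads of the pair cannot be told apart. DCN had 0 and 2 counts in shANP32B and 15 and 4 in shNC libraries, too few to pass the filter, and its groups did not overlap (ratio of summed counts 0.113, 95% exact interval 0.0128 to 0.47, counting error only).

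**Figure D3:**
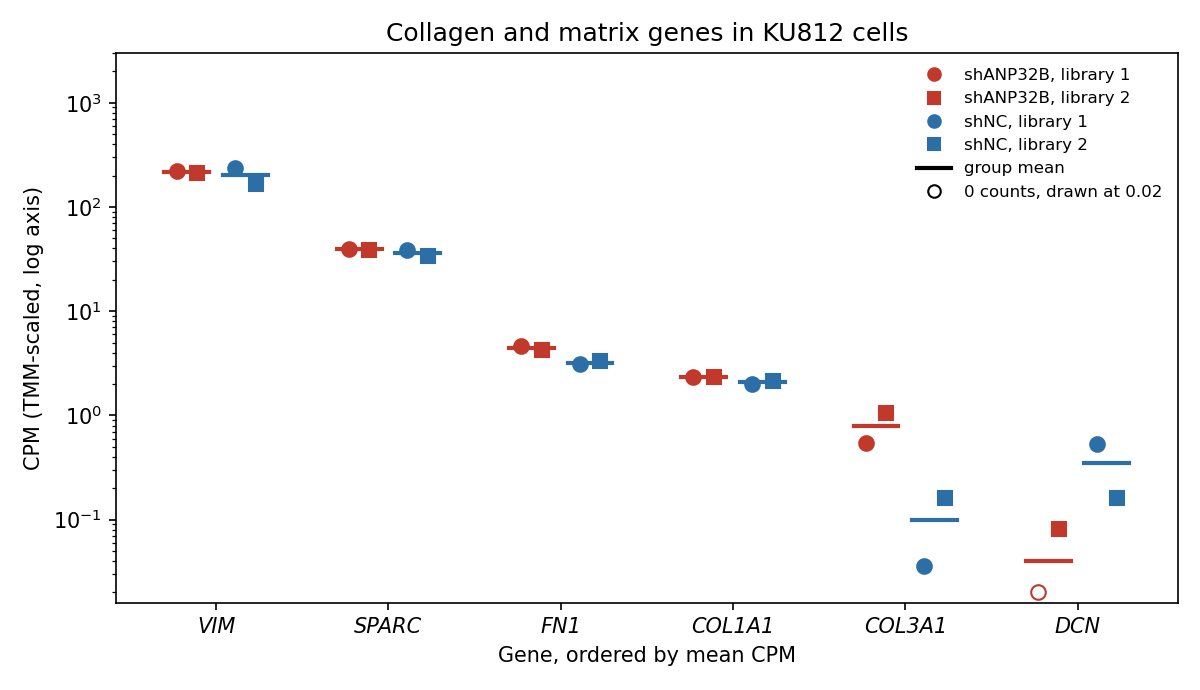
CPM of the 6 genes with a row in the 4 KU812 libraries on a log axis, with shANP32B libraries in red to the left of shNC libraries in blue and a bar at each group mean of 2 libraries. VIM, SPARC, FN1 and COL1A1 lie close in all libraries, COL3A1 is higher and DCN lower in both shANP32B libraries, both at under 30 counts per library.

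Among other matrix genes in KU812 cells, calls went both ways. Of 110 tested genes of the 7 pathway lists, 31 were called, 17 higher and 14 lower (28.2%, against 16.6% of all genes). Over all genes 7.53% were called higher and 9.06% lower. The lists were chosen with earlier results of these data known, so these shares are a description and carry no test. Of the 31 calls 18 held when each library was left out in turn, 29 were also made with DESeq2, and 18 held without the second shANP32B library.

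Among receptors of the proteins, 2 of 13 were called higher and 3 lower, against 7.53% and 9.06% of all genes tested. CXCR4 fell to 0.925 and 0.887 CPM in shANP32B libraries, against 11.4 and 10.8 CPM in shNC (log2 fold change -3.61, SE 0.30, adjusted p = 6.36e-06, edgeR). STAB1, a scavenger receptor that takes up SPARC in macrophages, rose to 1831 and 1746 CPM in shANP32B libraries, against 668 and 604 CPM in shNC (1.49, SE 0.093, adjusted p = 7.19e-07, edgeR). ITGA4 fell to 306 and 322 CPM, against 500 and 555 CPM in shNC (-0.75, SE 0.10). ITGA5, the alpha chain of the fibronectin receptor, stood at 290 and 324 CPM in shANP32B and 302 and 307 CPM in shNC and was not called. The calls of ITGB3 (0.42) and SDC4 (-0.72) were lost without the second shANP32B library (adjusted p = 0.161 at most for ITGB3 and 0.109 for SDC4 over the left-out libraries, edgeR), that of ITGB3 also without the second shNC library.

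Matrix proteases and inhibitors had 5 of 13 genes called higher and 1 lower, against 7.53% and 9.06% of all genes tested. MMP2, a gelatinase gene, rose to 34.0 and 44.4 CPM in shANP32B libraries, against 9.43 and 9.19 CPM in shNC (2.07, SE 0.18, adjusted p = 7.23e-06, edgeR). MMP14, which activates it, rose by a log2 fold change of 0.85, ADAMTS7 by 1.37 and ADAM10 by 0.41, although ADAM10 was not called without the second shANP32B library (adjusted p = 0.277, edgeR). The inhibitor gene TIMP1 rose to 486 and 562 CPM, against 296 and 347 CPM in shNC, while TIMP3 fell to 450.1 and 481 CPM, against 865 and 870.0 CPM.

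Of 14 other collagen chains 2 were called higher and 1 lower, against 7.53% and 9.06% of all genes tested. COL11A1, a fibrillar chain of cartilage, fell to 10.02 and 10.2 CPM in shANP32B libraries, against 32.2 and 31.5 CPM in shNC (-1.65, SE 0.16, adjusted p = 3.1e-05, edgeR). COL24A1, another fibrillar chain, rose to 19.4 and 18.5 CPM, against 10.5 and 5.81 CPM (1.21, SE 0.25). COL5A2, whose chain copolymerizes with type I collagen, rose by 1.67, a call lost without either shANP32B library and with DESeq2. Among 21 genes of collagen folding and processing, 2 rose and 3 fell. P4HA1, a collagen prolyl hydroxylase subunit, fell to 62.8 and 50.6 CPM, against 165 and 85.6 CPM in shNC (-1.15, SE 0.22), and its partner P4HB by 0.45 on the log2 scale. The value for P4HA1 was -0.60 without the first and -1.55 without the second shNC library, and DESeq2 did not call it. BMP1 (0.58), a procollagen protease, COLGALT1 (0.34) and PLOD2 (-0.70) were each called with all libraries but not without the second shANP32B library (highest adjusted p over the left-out libraries 0.0565, 0.286 and 0.139, edgeR).

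In the glycoprotein and proteoglycan list 1 of 21 genes was called higher and 3 lower, against 7.53% and 9.06% of all genes tested. HSPG2, the gene of perlecan, fell to 673 and 731 CPM in shANP32B libraries, against 1260 and 1102 CPM in shNC (-0.75, SE 0.099), and NID1, the gene of nidogen-1, fell by 0.91 on the log2 scale. FBN1, the gene of fibrillin-1, rose by 0.79, and EFEMP2 (-0.92) was not called without the second shANP32B library (adjusted p = 0.152, edgeR). Of 11 genes of the mesenchymal cytoskeleton 3 were called lower and none higher, beside the same shares over all genes. The muscle intermediate filament gene DES fell to 10.4 and 9.59 CPM, against 36.1 and 42.6 CPM in shNC, TPM1 by 0.91 on the log2 scale and CNN2 by 0.36, the last not called without either shANP32B library.

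The TGF-beta list holds inducers and repressors of matrix genes. Of its 17 tested genes 5 were called higher and none lower, against 7.53% and 9.06% of all genes tested. SNAI2, a transcription factor of mesenchymal transition, rose to 3.51 and 3.91 CPM in shANP32B libraries, against 1.25 and 0.407 CPM in shNC (2.14, SE 0.49, adjusted p = 0.00989, edgeR). The fold change of SNAI2 was 3.17 without the first and 1.55 without the second shNC library, on the log2 scale, and it was called in both fits. The ligand gene TGFB1 (0.40), the receptor gene TGFBR2 (0.37) and the pathway inhibitors SMAD7 (1.84) and SKIL (0.97) were higher as well, but none of these 4 was called without the second shANP32B library (highest adjusted p over the left-out libraries 0.0889, 0.458, 0.0773 and 0.123, edgeR).

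**Figure D4:**
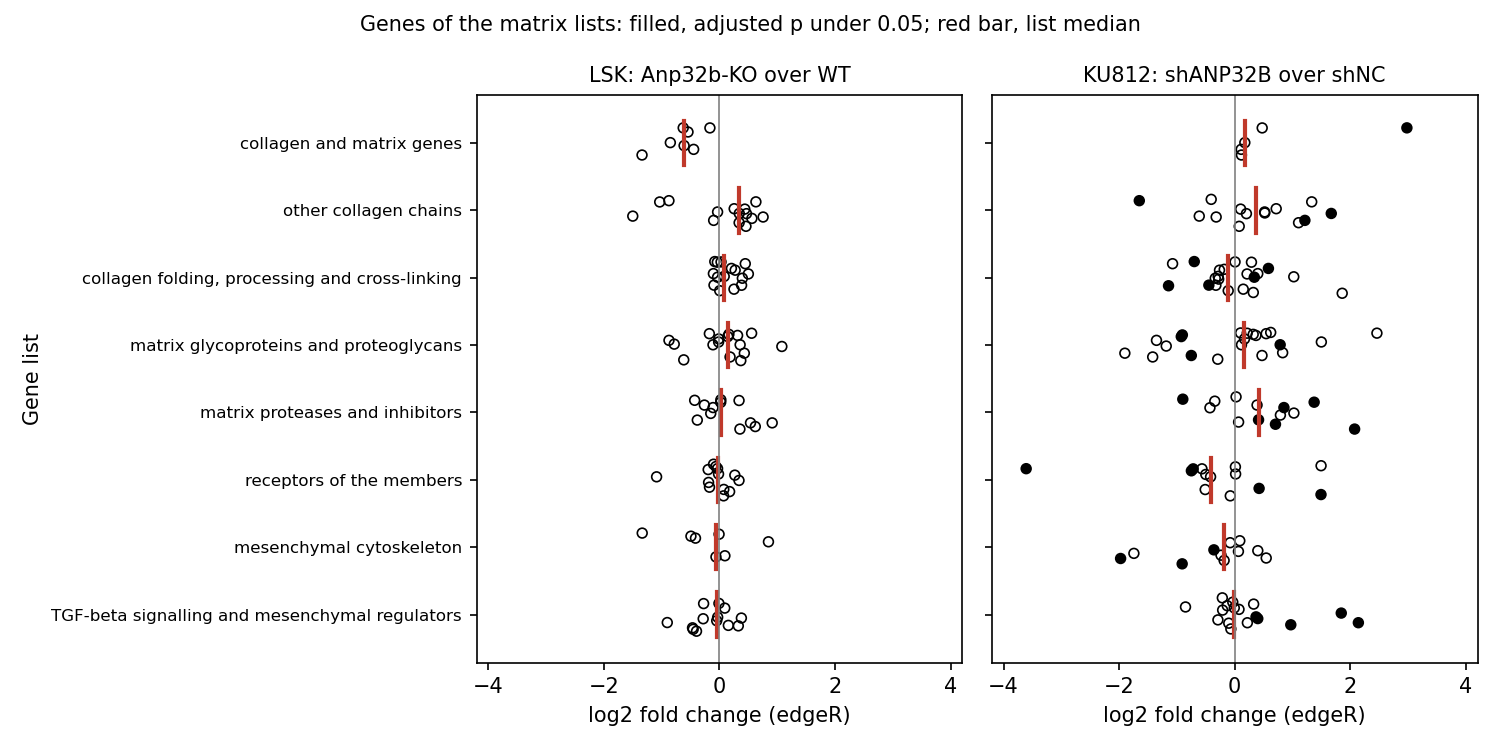
Log2 fold change of each tested gene of the 9 collagen and matrix genes (7 in LSK, 5 in KU812) and of the 7 pathway lists, Anp32b-KO over WT on the left and shANP32B over shNC on the right, with filled points at an adjusted p under 0.05 and a red bar at the list median. The LSK panel has no filled point, while in KU812 cells 31 list genes and COL3A1 are filled, on both sides of 0.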

How the data were processed

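The authors deposited 1 table per library with raw whole-number counts per gene symbol, as the values show. Tools listed in the submitters' processing notes, with no role or version, are DESeq, Cufflinks, TopHat and HISAT2, and the builds are GRCm38 and GRCh38. How reads were counted, with which strand setting, and how shared reads were treated is not stated there. Each experiment was fitted alone with edgeR 4.0.16 (R 4.3.3): filterByExpr, TMM, the quasi-likelihood test and Benjamini-Hochberg adjustment over all genes tested, with a threshold of 0.05. CPM use TMM-scaled library sizes. The SE is the unmoderated coefficient over the square root of F. The fits were tested on simulated data, and DESeq2 1.42.0, other scalings, no filter, left-out libraries and a replicate block were the alternatives. The genes and the 16 lists were chosen with earlier results of these data known, and 3 genes stand in 2 lists. Of each list the text names the genes with the highest mean CPM (up to 4) and, in KU812, called genes (up to 6). Profile distances used log2(CPM + 0.5) and left out predicted genes, pseudogenes and immunoglobulin segments. Gene lengths are GENCODE exon unions, and mouse coordinates are 1-based. Other names were chosen after their values were seen. Floors and the exact intervals of count ratios cover counting error only, while confidence intervals of fold changes come from the edgeR fit and include the spread between libraries.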

Additional observations from a re-analysis of the deposited data

Results flagged for a closer look

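The fold changes of Col1a1 and Sparc had opposite signs in the 2 experiments, although the KU812 intervals covered both signs. Col1a1 had a log2 fold change of -0.85 (KO over WT) in LSK cells and COL1A1 of 0.17 (shANP32B over shNC) in KU812 cells, and Sparc had -1.34 and SPARC 0.12. In each case both perturbed libraries lay on 1 side of both controls, in opposite directions. In KU812 cells 29.5% of the genes tested lay higher in this way. The 95% confidence intervals there ran from -0.66 to 1.01 for COL1A1 and from -0.18 to 0.41 for SPARC. The SPARC value was 0.012 without the second shNC library. The difference between experiments was not tested, since the LSK values chose the genes, and neither KU812 value passed the test.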

How the results depend on the processing

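The median log2 fold change of the 7 fitted genes in LSK cells ran from -0.82 to -0.22 over the left-out libraries, lowest without the second and nearest 0 without the first WT library. Fn1 ran from -0.36 to 0.064, and Cxcl12 from -1.19 to 0.49, both above 0 without the first WT library only. The number of list genes called in LSK cells ran from 0 to 20, and over all genes from 0 to 830, with 15 by DESeq2. In KU812 cells the number of the 5 genes called was 0 without a filter on low counts (COL3A1 at adjusted p = 0.0571, edgeR) and 0 with DESeq2, which gave COL3A1 no adjusted p, and it ran from 0 to 1 over the left-out libraries, where VIM was the gene called without the first shNC library. VIM ran from -0.14, without the second shNC library, to 0.39. The matrix list genes called ran from 21 to 41 of 118 to 120, and all genes called from 1413 to 4047, against 2741 with all libraries. Scaled by library totals, 1473 genes were called higher and 1183 lower, against 1244 and 1497. The labels' replicate numbers do not tie libraries to shared animals or cultures, and same-numbered libraries deviated together with correlations of -0.069 (LSK) and 0.12 (KU812). With the replicate number as a block the LSK median was -0.56, 0 list genes were called in LSK cells and 15 genes in all, while in KU812 cells 1 of the 5 genes, 43 list genes and 4164 genes in all were called. The causes of these shifts were not tested. With 3 counts at 0.196 to 0.286 CPM, Col3a1 and Dcn lie at the limit of this depth.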

Other observations

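The LSK values of 4 further listed genes, chosen after they were seen and none of them called, are given here. Bglap, the gene of the bone matrix protein osteocalcin, was read 3 and 1 times in KO and 14 and 11 times in WT libraries. Ramp2, the gene of a receptor-modifying protein of endothelium, had 13 and 26 counts in KO and 4 and 3 counts in WT libraries. Col5a2, whose chain joins type I collagen fibers, stood at 0.325 and 0.628 CPM in KO and 1.77 and 0.953 CPM in WT. Postn, the gene of the matrix protein periostin, stood at 3.33 and 2.30 CPM in KO and 1.57 and 1.05 CPM in WT.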
